A study of Homo sapiens with 18 samples.

Results

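The change of the response to hepatocyte growth factor (HGF) between 1 h and 4 h was measured in BxPC-3, an established human pancreatic cancer cell line, from 12 of the 18 RNA libraries of the study. For every gene the difference between HGF and vehicle at 4 h was compared with the same difference at 1 h, so that each hour was read against its own vehicle. Of 58395 gene identifiers in the count table, 16794 passed the low-count filter and were tested. The remaining 6 libraries, treated with the related ligand MSP, shared in the estimate of the spread and served for a comparison of the ligands.

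Each of the 4 groups held 3 libraries. They were BxPC-3 cells given phosphate-buffered saline as the vehicle and collected at 1 h, cells given HGF at 80 ng/ml and collected at 1 h, and the matching vehicle and HGF cells collected at 4 h. MSP was given at 100 ng/ml and collected at the same 2 times. All cells were grown in RPMI with 10% fetal bovine serum and antibiotics, and the labels used here do not say whether serum was present during treatment. The treatments are described as triplicates, without a word on whether these were separate cultures. The p-values then speak only of the spread between these libraries, which may be technical. All values come from 1 line under 1 dose of HGF, and the times between 1 h and 4 h were not sampled.

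HGF binds MET, a receptor tyrosine kinase that in epithelial cells activates the ERK and AKT kinase pathways and is known for scattering cells and for driving their migration. The transcriptional answer to such a signal comes in waves. Immediate-early genes, such as those of the FOS and EGR families, are switched on from factors already present in the cell and their RNA is often short-lived. Many later genes need newly made proteins, and the later genes include many that carry out growth, adhesion and matrix remodelling. ERK induces its own phosphatases and inhibitors as feedback. Whether the genes called delayed below need new proteins was not tested. AKT keeps the FOXO factors out of the nucleus, so that genes that FOXO factors drive are known to fall when AKT is active.

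The 12 libraries held between 30556613 and 46810947 counts. Levels are given as CPM, the usual depth-scaled counts, here relative to the TMM-scaled library size, where TMM is edgeR's trimmed-mean factor for library composition. A count of 0 allows up to 3 counts, which is 0.0641 to 0.0982 CPM of the unscaled total depending on the library, and this limit covers counting error only. TMM factors were 1.04 to 1.07 for vehicle at 1 h, 0.980 to 0.985 for HGF at 1 h, 1.04 for vehicle at 4 h and 0.841 to 0.860 for HGF at 4 h, and the share of counts from mitochondrial genes was 6.11% to 6.22% with HGF at 4 h against 8.73% to 8.98% with vehicle at that hour. ACTB took 0.903% of counts with HGF at 4 h and 0.362% with vehicle, and ACTG1 0.806% and 0.343%. The part of this shift in the results was not tested beyond scaling to library totals, given beside the counts below. All 10 ductal epithelial markers were tested, and their summed level was 6200 to 6503 CPM with vehicle at 1 h, 7431 to 7806 CPM with HGF at 1 h, 6673 to 6920 CPM with vehicle at 4 h and 8173 to 8741 CPM with HGF at 4 h. Of 10 fibroblast markers 4 were tested, with a summed level of 15 to 18.8 CPM over the 4 groups, and POSTN had 0 counts. Of 8 leukocyte markers 3 were tested, summing to 1.87 to 2.99 CPM with MS4A1 at 0. Of 6 endothelial markers 3 were tested, summing to 7.04 to 9.0 CPM in the other groups and 2.84 to 3.39 CPM with HGF at 4 h, with KDR and CLDN5 at 0. In bulk RNA, fewer cells of a type and less RNA per cell cannot be told apart.

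The response to HGF was remade between the hours. By edgeR's quasi-likelihood test at an adjusted p of 0.05, the response of 4498 genes was higher at 4 h than at 1 h (26.8% of genes tested) and that of 4437 genes was lower (26.4%). Changes of at least 2-fold were called for 957 genes in the higher and 1643 in the lower direction. At 1 h HGF raised 2317 genes (13.8%) and lowered 1202 (7.16%), and at 4 h it raised 5555 (33.1%) and lowered 5846 (34.8%). Counting only changes of at least 2-fold, 357 genes rose and 185 fell at 1 h, and 1505 rose and 2125 fell at 4 h. Between the 2 hours the vehicle itself changed in 3513 genes in either direction (20.9%), so a lower response could come from a fall with HGF, a rise with vehicle or both. Under scaling to library totals the median change of the response over all genes moved from -0.04 to -0.23 on the log2 scale, and the calls became 3117 higher and 6371 lower. The calls for HGF became 1523 higher and 3590 lower at 1 h, and 3553 higher and 8732 lower at 4 h.

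Genes were placed in time classes from these 3 fits, so the counts of a class and the 1 h and 4 h changes of its members describe the classes and do not test them. Early genes were called at 1 h with a change of at least 2-fold. Of these, transient genes lost at least 2-fold of the response and were under 2-fold at 4 h, declining genes lost at least 2-fold but stayed at or above 2-fold, sustained genes stayed at or above 2-fold and changed by less than 2-fold between the hours, and growing genes gained at least 2-fold. Delayed genes were not early, had a 1 h change under 0.5 on the log2 scale in the direction of the later change, and were called at 4 h and in the change over time with at least 2-fold in both. Among genes higher with HGF there were 66 transient, 23 declining, 151 sustained, 32 growing and 704 delayed genes. Among genes lower with HGF there were 21 transient, 1 declining (the zinc finger gene ZNF792), 70 sustained, 12 growing and 1270 delayed genes. A further 166 early and 1345 later genes met no class limit. The limits are sharp and the genes near them are alike: FBXL18, at 1.002 on the log2 scale at 1 h, was inside the early limit and EFNB2, at 0.996, outside. The change of the response was 1.003 for RAPH1, inside the delayed class, and 0.9996 for LPAR1, outside it, and the response fell by 1.05 for IER2, inside the declining class, and by 0.991 for SKIL, outside it.

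**Figure D1:**
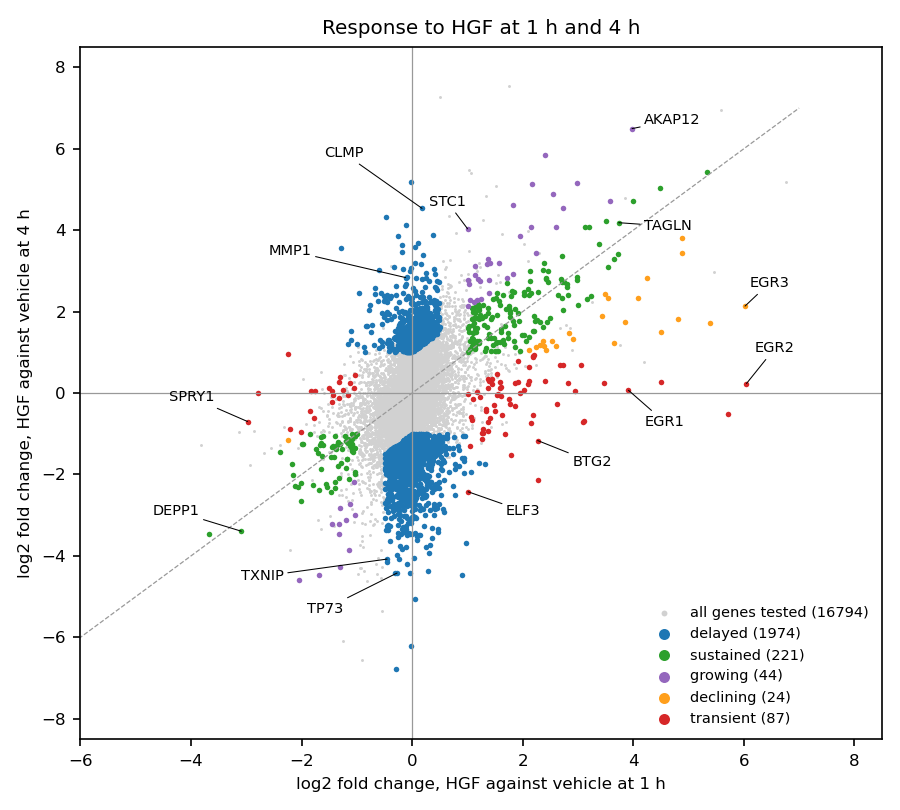
Log2 fold change of HGF against vehicle at 1 h (horizontal axis) and at 4 h (vertical axis) for each of 16794 genes tested, with the time classes in colour, the dashed line where both are equal and 14 genes named. Transient genes such as EGR1 and EGR2 lie to the right near the horizontal zero line, growing genes such as AKAP12 above the dashed line, and delayed genes such as MMP1, TP73 and TXNIP along the vertical zero line.

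Promoters of 6 genes from the classes are shown to give the DNA in front of the starts whose output is described here. Of the 91 genes named by the rule, 69 had a promoter in the RefSeq table (GRCh38.p14). Each run is the 250 bases before the annotated start, 5′ to 3′ on the strand of the gene. Capitals mark a match, on either strand, to a motif of a known transcription factor. For EGR1 and AKAP12 this is the CArG box, which binds serum response factor. For IL11 and F3 it is the AP-1 site (TGAGTCA or its reverse complement TGACTCA), which binds FOS and JUN proteins. For DEPP1 and TXNIP it is the core GTAAACA, which binds FOXO factors.

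EGR1, a transient gene, chr5:138465229-138465478, plus strand, with 2 CArG boxes that begin 105 and 83 bases before the start:
EGR1: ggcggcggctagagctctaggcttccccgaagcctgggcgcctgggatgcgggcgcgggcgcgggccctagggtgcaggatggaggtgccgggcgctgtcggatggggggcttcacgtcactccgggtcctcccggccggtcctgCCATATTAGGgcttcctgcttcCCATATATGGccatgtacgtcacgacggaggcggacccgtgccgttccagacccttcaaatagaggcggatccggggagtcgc

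AKAP12, a growing gene, the first of 3 annotated starts, chr6:151239717-151239966, plus strand, with 1 CArG box 81 bases before the start:
AKAP12: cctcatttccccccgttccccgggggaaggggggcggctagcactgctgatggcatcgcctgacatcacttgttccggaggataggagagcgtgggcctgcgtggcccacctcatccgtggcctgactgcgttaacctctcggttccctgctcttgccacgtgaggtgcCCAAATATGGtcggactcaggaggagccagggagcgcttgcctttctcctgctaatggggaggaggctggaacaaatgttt

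IL11, a sustained gene, chr19:55370464-55370713, minus strand, with 1 AP-1 site 96 bases before the start:
IL11: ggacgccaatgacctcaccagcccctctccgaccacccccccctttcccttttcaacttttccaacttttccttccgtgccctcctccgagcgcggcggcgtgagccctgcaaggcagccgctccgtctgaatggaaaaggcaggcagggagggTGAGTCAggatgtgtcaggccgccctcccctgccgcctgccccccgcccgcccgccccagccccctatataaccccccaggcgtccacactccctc

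F3, a growing gene, chr1:94541760-94542009, minus strand, with 1 AP-1 site 210 bases before the start:
F3: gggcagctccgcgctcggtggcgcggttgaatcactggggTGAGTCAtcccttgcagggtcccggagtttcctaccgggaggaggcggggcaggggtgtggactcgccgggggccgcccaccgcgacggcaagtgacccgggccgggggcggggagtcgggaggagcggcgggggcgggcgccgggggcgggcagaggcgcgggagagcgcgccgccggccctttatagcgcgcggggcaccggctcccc

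DEPP1, a sustained lower gene, chr10:44978810-44979059, minus strand, with 1 FOXO core 180 bases before the start:
DEPP1: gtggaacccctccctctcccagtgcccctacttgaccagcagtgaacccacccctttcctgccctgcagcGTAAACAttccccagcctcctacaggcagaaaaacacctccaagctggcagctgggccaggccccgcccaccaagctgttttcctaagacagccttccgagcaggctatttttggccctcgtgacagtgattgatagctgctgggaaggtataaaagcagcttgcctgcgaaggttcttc

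TXNIP, a delayed lower gene, one of 2 annotated starts, chr1:145996580-145996829, minus strand, with 1 FOXO core 124 bases before the start:
TXNIP: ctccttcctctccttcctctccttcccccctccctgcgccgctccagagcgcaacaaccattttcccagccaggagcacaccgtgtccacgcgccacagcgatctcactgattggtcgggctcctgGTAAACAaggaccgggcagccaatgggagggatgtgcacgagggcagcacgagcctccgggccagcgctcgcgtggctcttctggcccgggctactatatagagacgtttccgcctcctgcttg

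These 6 were chosen because they hold a match, so the matches are a description and not sites shown to act. Over 27305 promoters of the table, a CArG box was in 1.143%, an AP-1 site in 4.16% and a FOXO core in 2.977%. Motif shares were counted by class but are not compared here, because only 79.82% of the protein-coding genes tested had a promoter in the table.

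The transient class held the transcription factors EGR1, EGR2, NR4A2 and NR4A3, which were called higher with HGF at 1 h and were not called against vehicle at 4 h, while EGR3, EGR4 and NR4A1 fell in the declining class. Of the 66 transient genes that rose, 37 were not called against vehicle at 4 h, 12 were still called higher and 17 were called lower. The median member stood at 1.71 on the log2 scale at 1 h and at -0.04 at 4 h. All 3 HGF libraries lay above all 3 vehicle libraries for 64 of the 66 genes at 1 h. At 4 h they lay above for 14 and below for 17. Beside this, 13.8% of all genes tested were called higher with HGF at 1 h, and nothing is read from the difference because the class was chosen on that call.

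EGR2, a zinc finger transcription factor, had 3.6, 4.07 and 3.67 CPM in the vehicle libraries and 239, 262 and 251 CPM in the HGF libraries at 1 h. At 4 h the vehicle libraries had 1.24, 1.07 and 1.11 CPM and the HGF libraries 0.952, 1.53 and 1.5 CPM. The groups lay far apart at 1 h and overlapped at 4 h. The response thus went from a 66.2-fold rise to a log2 change of 0.23 (SE 0.19, adjusted p = 0.28), and the change between the hours was -5.82 (SE 0.24, adjusted p = 9.87e-19). The vehicle itself fell by 1.73 between the hours (adjusted p = 7.06e-10).

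EGR1, the best known member of that family, had 57.8, 71.7 and 69.2 CPM with vehicle and 972, 1028 and 995 CPM with HGF at 1 h. At 4 h it had 50.2, 47.3 and 51.2 CPM with vehicle and 47.2, 58.1 and 50.5 CPM with HGF, and these overlapped. Its change of response was -3.85 (SE 0.13, adjusted p = 5.18e-14). NR4A3, an orphan nuclear receptor, followed the same course at a lower level, from 22.7 ± 1.04 CPM with HGF at 1 h to 0.530 ± 0.127 CPM at 4 h (SD, n = 3), where vehicle had 0.437 ± 0.206, and its response changed by -4.24 (SE 0.37, adjusted p = 3.34e-11). The endothelin EDN2, named after its values were seen, went from 348 counts over the 3 HGF libraries at 1 h to 4 at 4 h, where vehicle had 7.

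Some transient genes went below vehicle. BTG2, an antiproliferative gene and partner of the RNA deadenylase complex, had 54.9, 55.4 and 51.4 CPM with vehicle and 263, 267 and 251 CPM with HGF at 1 h. At 4 h vehicle had 62.5, 68 and 66.1 CPM and HGF 28.3, 29.9 and 29.4 CPM, so that the HGF libraries were above every vehicle library at 1 h and below every one at 4 h. The change of response was -3.44 (SE 0.07, adjusted p = 3.81e-26). ELF3, an epithelial ETS factor, behaved alike at a smaller early size, with 44.2 ± 4.35 CPM against 21.9 ± 1.09 CPM at 1 h and 3.39 ± 0.342 against 18.3 ± 0.392 CPM at 4 h (SD, n = 3), and its response changed by -3.44 (SE 0.11, adjusted p = 1.25e-20). RNF39, a RING finger gene, had 98 ± 3.05 CPM with HGF at 1 h and 8.98 ± 0.740 CPM at 4 h, where vehicle had 14.7 ± 0.331 CPM, a change of -3.8 (SE 0.09, adjusted p = 1.47e-23). GDF15, a stress-induced ligand of the TGF-beta superfamily, went from 2.61 to -0.27 on the log2 scale (adjusted p at 4 h = 0.007), and the stress factor ATF3 from 2.16 to -0.73. Over all genes, 412 were called at both hours in opposite directions, 265 of them higher first. Only 5 had at least 2-fold both ways, BTG2, ELF3 and 3 RNAs of the antisense class with under 1 CPM in every group mean, ENSG00000241357, ENSG00000265399 and STX5-DT.

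Of the 21 genes that were transiently lower, SPRY1, a Sprouty inhibitor of ERK signalling, had the largest change among those that the rule for naming could take. It had 13.4, 13.6 and 12.9 CPM with vehicle and 1.56, 1.76 and 1.72 CPM with HGF at 1 h. By 4 h it had 14.8, 15.9 and 15.4 CPM with vehicle and 8.3, 10.4 and 9.69 CPM with HGF, still below every vehicle library. Its response changed by 2.28 (SE 0.13, adjusted p = 4.96e-15). RGS16, a regulator of G protein signalling, and RASL11B, a small GTPase, had returned, with changes of 1.6 and 1.81 (adjusted p = 7.74e-06 and 2.25e-05) at low levels. FANCF, a Fanconi anaemia core gene, went from 8.75 ± 0.934 CPM, below the 18 ± 0.899 of vehicle, to 23.1 ± 1.4 CPM, above the 16.9 ± 1.16 of vehicle (SD, n = 3), and was the 1 member that had crossed over.

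The 23 declining genes kept part of a large early rise, and all 23 were protein coding. Their median was 3.50 on the log2 scale at 1 h and 1.49 at 4 h. EGR3 had 10.5, 12.6 and 11.4 CPM with vehicle and 734, 755 and 758 CPM with HGF at 1 h, and 2.84, 2.53 and 2.92 against 11.7, 12.5 and 12.3 CPM at 4 h. The HGF libraries of 4 h were back at the vehicle level of 1 h, but remained above vehicle of their own hour, which had fallen by 2.06 (adjusted p = 2.85e-15). Its response changed by -3.89 (SE 0.14, adjusted p = 1.31e-19). CCN2, a matricellular protein and YAP target, had 234, 227 and 246 CPM with HGF at 1 h and 6.2, 4.76 and 7.57 CPM at 4 h, while vehicle went from 4.78, 6.14 and 5.95 to 2.32, 1.52 and 1.84 CPM. FOSB, an AP-1 subunit, had 965 ± 9.67 CPM with HGF at 1 h and 48.4 ± 3.81 CPM at 4 h, against 42.5 ± 3.5 and 17.2 ± 0.260 CPM with vehicle (SD, n = 3). The changes of response were -3.67 (SE 0.22, adjusted p = 4.92e-12) for CCN2 and -3.01 (SE 0.08, adjusted p = 3.99e-23) for FOSB. Vehicle was called lower at 4 h than at 1 h for 15 of the 23 genes and higher for 1. Over all 16794 genes tested it was lower for 1677 and higher for 1836. These vehicle libraries are part of the response itself, and so of the choice of the class. The other members included the receptor ligand HBEGF (4.08 at 1 h, 2.35 at 4 h), the cytokine LIF (3.5 and 2.43) and the JAK-STAT inhibitor SOCS3 (2.61 and 1.16).

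Sustained genes were at a like height at both hours, and they included secreted and surface proteins that act on other cells. The 151 sustained higher genes had a median of 1.64 on the log2 scale at 1 h and 1.86 at 4 h, and the HGF libraries lay above all vehicle libraries for 149 of them at 1 h and for 149 at 4 h. TAGLN, the actin-binding protein transgelin, had 2.39, 2.68 and 2.91 CPM with vehicle and 40.5, 31.8 and 34.7 CPM with HGF at 1 h. At 4 h it had 3.99, 2.71 and 2.16 CPM with vehicle and 55.6, 48.4 and 56 CPM with HGF. The groups were apart at both hours, and the change of response, 0.45 (SE 0.20, adjusted p = 0.071), did not pass the test. SEMA7A, a membrane-anchored semaphorin, had 149, 134 and 124 CPM with HGF at 1 h and 68.7, 57.7 and 59.6 CPM at 4 h. Its vehicle level fell as well, from 10.8 ± 1.44 to 6.37 ± 0.719 CPM (SD, n = 3), so its response fell only by 0.36 (adjusted p = 0.023).

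IL11, a cytokine of the IL-6 family, had 0.668, 0.585 and 0.592 CPM with vehicle and 7.04, 5.35 and 4.84 CPM with HGF at 1 h, and 0.649, 0.535 and 0.369 against 9.94, 8.34 and 8.06 CPM at 4 h. Its response rose further by 0.87 (SE 0.31, adjusted p = 0.018), within the 2-fold limit of the class. CD274, which encodes the immune checkpoint ligand PD-L1, had 23.3, 19.3 and 23.6 CPM with HGF at 1 h and 37.8, 31.6 and 38.8 CPM at 4 h, against 2.53 ± 0.370 and 2.13 ± 0.368 CPM with vehicle. Its response rose by 0.95 (adjusted p = 8.54e-05). GPR132, a G protein-coupled receptor, stood at 2.99 and 2.84 on the log2 scale, with a change of -0.15 (SE 0.18, adjusted p = 0.51). CGB5, a chorionic gonadotropin beta gene with near-identical copies among which reads may be split, stood at 3.5 and 4.23 at under 5 CPM. A change that misses the threshold does not show an equal response: for CGB5 its SE was 0.60.

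Sustained losses numbered 70 against 151 sustained rises with TMM factors, and 130 against 117 with library totals, so their order depends on the scaling. The 70 sustained lower genes had a median of -1.37 on the log2 scale at 1 h and -1.38 at 4 h, and 32 were protein coding. DEPP1, an autophagy regulator induced by FOXO, had 10.5, 9.19 and 10.2 CPM with vehicle and 0.923, 1.05 and 1.43 CPM with HGF at 1 h. By 4 h it had 16.3, 18.4 and 15.4 CPM with vehicle and 1.48, 1.49 and 1.76 CPM with HGF. Both hours were fully separated, and the change of response was -0.30 (SE 0.21, adjusted p = 0.25). ZNF436, a zinc finger gene, had 25.7 ± 2.27 against 71.3 ± 4.38 CPM at 1 h and 29 ± 0.790 against 86.2 ± 5.23 CPM at 4 h (SD, n = 3). OSR2, an odd-skipped zinc finger factor, stood at -1.65 and -1.86, and SPESP1 at -2.12 and -2.29. The cell cycle inhibitor CDKN1B, which encodes p27, was also in the class, at -1.39 at 1 h and -1.06 at 4 h.

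Growing genes were up at 1 h and climbed further. AKAP12, a scaffold that anchors protein kinase A, had 11.4, 12.1 and 11.9 CPM with vehicle and 197, 179 and 184 CPM with HGF at 1 h. At 4 h it had 13.6, 11.6 and 10.7 CPM with vehicle and 977, 1136 and 1119 CPM with HGF. Vehicle did not differ between the hours by the test, and the response went from 15.8-fold to 90.2-fold, a change of 2.52 (SE 0.20, adjusted p = 6.21e-08) on the log2 scale. STC1, the secreted glycoprotein stanniocalcin, had 15.2, 14.3 and 14.4 CPM with HGF at 1 h and 85, 89.8 and 89.6 CPM at 4 h, where vehicle had 7.29 ± 0.102 and 5.38 ± 0.406 CPM. TMEM158, a transmembrane protein known from RAS-driven senescence, rose from 6.62 ± 0.611 to 49.4 ± 2.83 CPM with HGF, against 2.01 ± 0.370 CPM with vehicle at 4 h (SD, n = 3). The changes of response were 3.03 (SE 0.11, adjusted p = 2.51e-20) for STC1 and 2.79 (SE 0.19, adjusted p = 7.81e-14) for TMEM158. Tissue factor, the initiator of blood coagulation encoded by F3, went from 2448 ± 53.4 to 3891 ± 169 CPM with HGF, and plasminogen activator inhibitor 2, encoded by SERPINB2, from 115 ± 5.51 to 372 ± 11.6 CPM. With vehicle F3 fell from 694 ± 21.7 to 514 ± 44.1 CPM, and SERPINB2 from 25.9 ± 1.1 to 22.1 ± 2.74 CPM. For F3 the rise with HGF was 0.67 on the log2 scale, and the fall with vehicle also enters its change of 1.1. The AP-1 subunit FOSL1 stood at 3.58 on the log2 scale at 1 h and 4.71 at 4 h. Of the 12 growing lower genes, GAS1, a growth arrest gene, met the rule for naming, with 3.88, 3.36 and 2.89 CPM with vehicle and 1.11, 1.38 and 1.56 CPM with HGF at 1 h. By 4 h it had 3.65, 4.91 and 4.94 and 0.761, 0.521 and 0.620 CPM, a change of -1.53 (SE 0.28, adjusted p = 2.87e-05).

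Delayed genes were the most numerous of the classes. The 704 delayed higher genes had a median of 0.06 on the log2 scale at 1 h and 1.44 at 4 h. The HGF libraries lay above all vehicle libraries in 700 of them at 4 h. At 1 h they lay above in 217 and below in 52. MMP1, the interstitial collagenase, had 44, 40.5 and 43.9 CPM with vehicle and 39.9, 39.4 and 39 CPM with HGF at 1 h. At 4 h it had 38.5, 41.3 and 44.3 CPM with vehicle and 288, 305 and 294 CPM with HGF. The HGF libraries of 1 h lay just below all vehicle libraries of that hour and within the range of vehicle at 4 h. Only those of HGF at 4 h stood far apart, with a change of 2.96 (SE 0.08, adjusted p = 1.06e-22).

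CLMP, an adhesion molecule of the CTX family, had 0.540, 0.926 and 1.07 CPM with vehicle and 0.923, 0.897 and 1.04 CPM with HGF at 1 h, and 1.85, 0.981 and 1.9 against 38.5, 35.5 and 36.2 CPM at 4 h. Its change was 4.36 (SE 0.30, adjusted p = 2.92e-13). GPAT3, a glycerol-3-phosphate acyltransferase of triglyceride synthesis, had 6.34 ± 0.170 CPM with HGF at 1 h and 66.5 ± 2.31 CPM at 4 h. Vehicle had 4.87 ± 0.131 and 4.5 ± 0.276 CPM, and the change was 3.5 (SE 0.12, adjusted p = 2.02e-20). ZBED2, a zinc finger repressor, went from 4.24 ± 0.124 to 49.4 ± 2.19 CPM with HGF, and ABCA13, an ABC transporter, from 9.63 ± 0.904 to 69.5 ± 2.1 CPM (SD, n = 3). Their changes were 3.42 (SE 0.14, adjusted p = 1.49e-18) and 3.22 (SE 0.11, adjusted p = 1.17e-20). At 1 h GPAT3 was already called higher, at 0.38 on the log2 scale (adjusted p = 0.0014), and ZBED2 lower, at -0.33 (adjusted p = 0.027). ABCA13, at -0.17, did not pass the test at that hour. The junctional protein gene JCAD, at 3.15, and the chondroitin sulfotransferase gene CHST11, at 4.8, started from under 2 CPM and their sizes are less certain, with SEs of 0.28 and 0.56.

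The 1270 delayed lower genes had a median of -0.04 on the log2 scale at 1 h and -1.57 at 4 h. The HGF libraries lay below all vehicle libraries in 1257 of them at 4 h. At 1 h they lay below in 199 and above in 96. TP73, a p53 family transcription factor, had 36, 34.5 and 35.7 CPM with vehicle and 30.4, 29.7 and 28 CPM with HGF at 1 h. By 4 h it had 36.5, 38.3 and 37.4 CPM with vehicle and 2.02, 1.68 and 1.57 CPM with HGF. The small loss at 1 h, -0.27 (SE 0.06, adjusted p = 4.64e-04), became a 21.4-fold loss at 4 h, a change of -4.15 (SE 0.11, adjusted p = 3.99e-23). TXNIP, an inhibitor of thioredoxin and of glucose uptake, had 614, 614 and 619 CPM with HGF at 1 h and 66.1, 57.4 and 69.9 CPM at 4 h, while vehicle had 927, 777 and 827 and 951, 1163 and 1155 CPM. The response of TXNIP changed by -3.63 (SE 0.12, adjusted p = 8.63e-14).

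FOXP2, a forkhead repressor, had 13, 14.1 and 13.6 CPM with HGF at 1 h and 1.1, 0.782 and 0.522 CPM at 4 h, against 13.2 ± 0.770 CPM with vehicle at 4 h. FZD2, a Wnt receptor, went from 4.94 ± 0.237 to 0.376 ± 0.117 CPM with HGF (SD, n = 3). The changes of response were -4.1 (SE 0.19, adjusted p = 2.48e-17) for FOXP2 and -3.85 (SE 0.23, adjusted p = 4.83e-15) for FZD2. RARB, a retinoic acid receptor, had 232 counts over the 3 HGF libraries at 1 h and 11 at 4 h, and 250 over the vehicle libraries at 4 h, and TMEM37, a calcium channel gamma-like subunit, had 265 and 18 counts with HGF. At 4 h their values with HGF were near the limit of detection, so the changes of -4.1 and -3.71 carry SEs of 0.37 and 0.41. Among the genes named so far, EGR3, RNF39, ELF3, FANCF, TAGLN, DEPP1, ZNF436, MMP1, TP73 and RARB overlap a gene on the opposite strand in GENCODE 29, and so do ANGPTL4, HAS2, MMP3, IFIT2, TPM4, HK2, MCM2 and KIF20A, named below. No source used here states how the counting treated strand, so reads from such partners cannot be told apart.

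**Figure D2:**
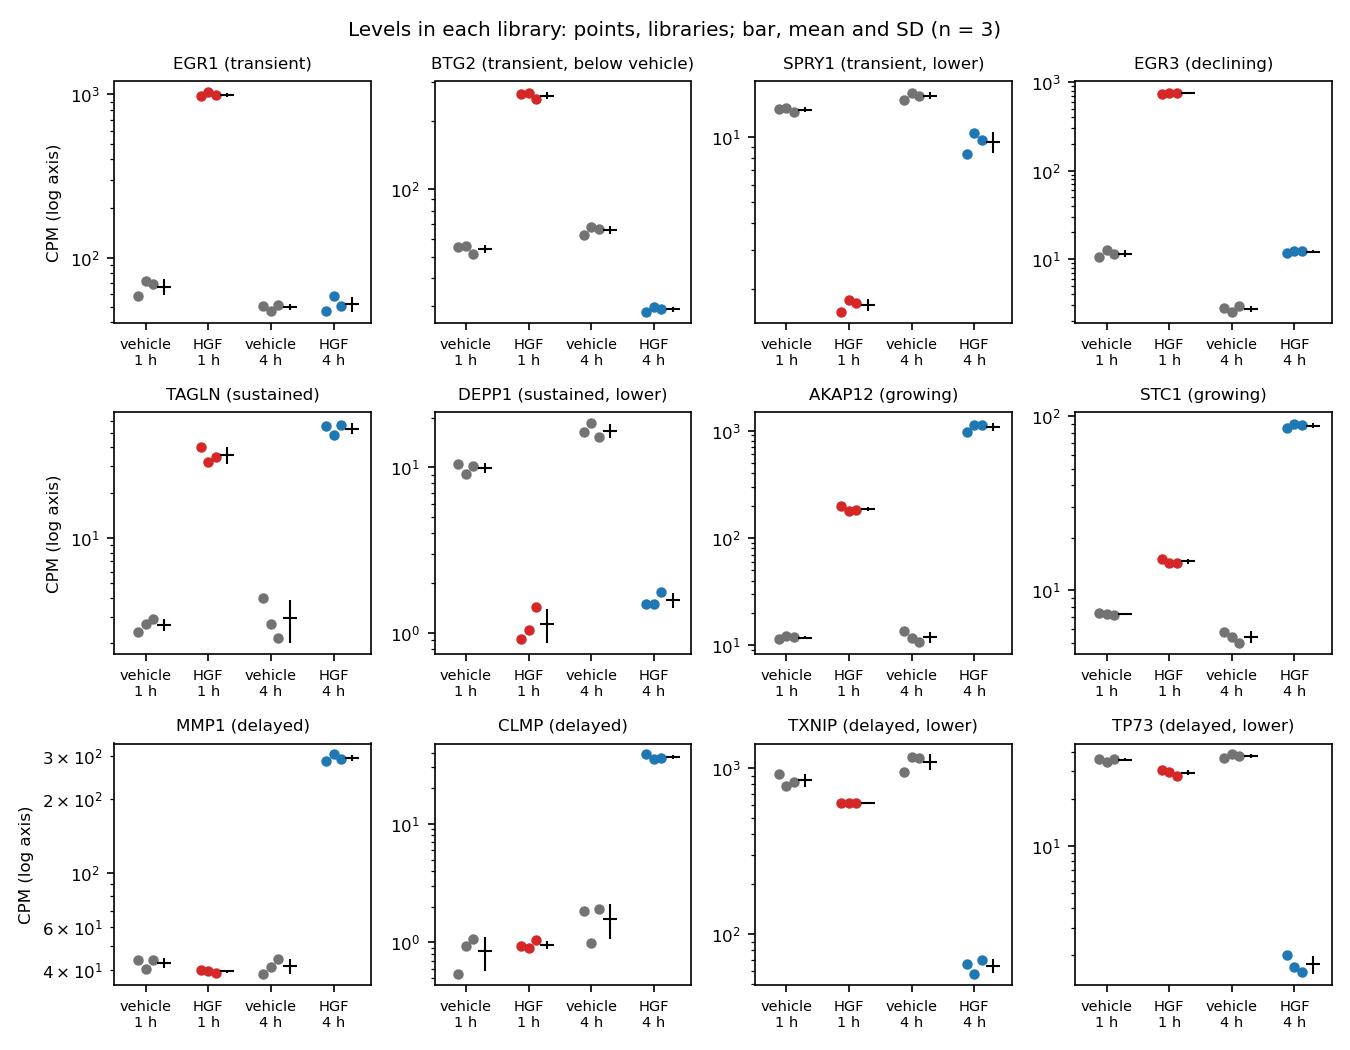
Level in CPM on a log axis, with its own range in each panel, of 12 genes in the 3 libraries of each group, with mean and SD beside the points. EGR1 and BTG2 are high only with HGF at 1 h, BTG2 lies below vehicle with HGF at 4 h, TAGLN and DEPP1 are shifted at both hours, AKAP12 and STC1 climb further at 4 h, and MMP1, CLMP, TXNIP and TP73 depart from vehicle mainly with HGF at 4 h.

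Genes were also read by role in lists, given as counts of members called beside the background of 26.8% higher and 26.4% lower, with no test of a list. Of 24 immediate-early genes, mostly transcription factors but with BTG2, ZFP36 and MCL1 among them, all were called higher at 1 h. Their response was called lower at 4 h than at 1 h for 21 and higher for 2, and the median change was -1.48 on the log2 scale against -0.04 over all genes. The exceptions were KLF4 and KLF6, Kruppel-like factors whose response grew by 0.71 and 0.51, and SRF, at 0.06, which did not pass the test. Alongside the EGR genes, FOS went from 3.66 to 1.22 on the log2 scale, JUNB from 2.68 to 0.68 and JUN from 2.49 to 1.84. Of 8 later AP-1 subunits, the response of 2 was higher and that of 5 lower: CREB5, at 2.18, and FOSL1, at 1.13, against JUND, at -0.90, FOSL2, at -0.61, BATF, at -0.58, MAFK, at -0.28, and ATF4, at -0.22.

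Feedback genes of ERK did not move as 1 block. Of 22 phosphatases and inhibitors, the response of 11 was higher and that of 9 lower, with a median of 0.13. The early phosphatases DUSP1 and DUSP2, at 3.85 and 4.88 on the log2 scale at 1 h, were at 1.73 and 3.43 at 4 h. DUSP4 and DUSP7 went the other way, from 1.14 and 1.11 to 2.0 and 1.99. SPRY4 stayed at 2.76 and 2.72, with a change of -0.04 that did not pass the test, and SPRY2 went from 0.99 to 1.59. IER3, an ERK-induced survival gene, had 350.4 ± 12.2 CPM with HGF at 1 h and 139 ± 7.83 CPM at 4 h (SD, n = 3), and its response fell by 1.26 (adjusted p = 4.54e-16). With library totals the list stood at 8 higher and 9 lower and its median at -0.05, so the sign of its median depends on the scaling.

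Of 11 ERK output genes, ETS factors together with MYC, CCND1, EPHA2 and EPHA4, the response of 4 was higher and that of 7 lower. ETS1 went from 0.53 to 2.13 on the log2 scale, a change of 1.6 (SE 0.06, adjusted p = 7.50e-20), while ETV1, at -1.5, ETV5, at -1.04, and ETS2, at -1.12, had a lower response. In 6 EGF-family ligands, which activate receptors of the EGF receptor family, the response was higher in 4 and lower in 1. HBEGF was the ligand with the lower response. With library totals 3 were higher and 2 lower. TGFA had 64.3, 63.2 and 62.8 CPM with vehicle and 133, 124 and 126 CPM with HGF at 1 h, and 51.1, 46.4 and 48 against 336, 313 and 347 CPM at 4 h. Its response rose by 1.77 (adjusted p = 1.41e-19). EREG, at -0.20, did not pass the test.

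Of 13 cytokines and chemokines tested, the response of 3 was higher and that of 2 lower. IL1B went from 22.9 ± 1.03 to 47.3 ± 4.98 CPM with HGF and changed by 1.62 (SE 0.14, adjusted p = 9.82e-11), and CCL20 and IL11 grew as well. The response was lower for LIF, at -1.06, and for CX3CL1, at -2.01, whereas CXCL8, IL1A and CSF2, at 0.21, 0.27 and 0.30, did not pass the test. Among 14 NF-kB subunits and inhibitors the calls were even, 6 higher and 6 lower. BCL3 fell from 2.11 to 0.64 on the log2 scale, and NFKB1 and NFKB2 gained 0.38 and 0.37. With library totals this list stood at 1 higher and 7 lower, and its median moved from 0.02 to -0.17.

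Most genes of matrix remodelling gained response. Of 19 genes of the plasminogen system and the metalloproteinases, the response of 17 was higher and that of 1, TIMP2, lower, with a median of 0.97. Their 1 h calls were 8 higher, among them the urokinase receptor PLAUR at 2.02. The later members were the proteases MMP10 (1.46 at 4 h), MMP7 (1.46), ADAM19 (1.6) and PLAT (1.27). MMP3 had 11 counts over the vehicle libraries and 110 over the HGF libraries at 4 h, after 6 and 2 at 1 h. Of 16 integrin and laminin genes, 12 were higher and 2 lower. ITGA5, the fibronectin receptor subunit, had 45.3, 41 and 42.5 CPM with HGF at 1 h and 165, 157 and 161 CPM at 4 h, against 40.3 ± 2.02 CPM with vehicle at 4 h, a change of 1.79 (SE 0.07, adjusted p = 1.08e-18). ITGB8 and LAMA5 changed by -1.62 and -1.1.

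Of 16 SRF and actin genes, the response of 11 was higher and that of 1 lower. ACTB went from 1.01 at 1 h to 1.61 at 4 h and VCL, which encodes vinculin, from 0.38 to 1.25. TPM4, a tropomyosin, had 775 ± 17.5 and 1511 ± 44.8 CPM with HGF at the 2 hours and 423 ± 6.4 CPM with vehicle at 4 h. FILIP1L was the exception, with a change of -2.69 (SE 0.13, adjusted p = 5.47e-17). With library totals this list stood at 9 higher and 4 lower. Of 11 YAP targets the response of 7 was lower and that of 3 higher, the lower ones including CCN1 (-1.57), ANKRD1 (-1.11) and AMOTL2 (-0.87), while F3 gained 1.1.

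Epithelial and mesenchymal genes showed no common course. Of 17 junction genes, 6 were higher and 5 lower, and with library totals 4 and 11. CLDN1, a tight junction claudin, had 935, 954 and 1001 CPM with HGF at 1 h and 186, 170.0 and 197 CPM at 4 h, against 999 ± 58.7 CPM with vehicle at 4 h, a change of -2.24 (SE 0.10, adjusted p = 2.69e-13). CDH1, encoding E-cadherin, gained 0.28 and CTNNB1, encoding beta-catenin, 0.65. Of 8 mesenchymal genes tested, 3 were higher, HAS2 (2.78), HMGA2 (1.42) and VIM (0.45), and SNAI2 was lower (-0.61). With library totals 2 were higher and 2 lower. SNAI1, at -1.34, did not pass the test. ZEB1, ZEB2, TWIST1, TWIST2, TNC and PRRX1 did not pass the low-count filter.

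Receptors changed late. MET itself had 840.3, 856 and 859 CPM with HGF at 1 h and 976, 1011 and 1068 CPM at 4 h, against 842, 812 and 799 and 827, 795 and 828 CPM with vehicle. The HGF libraries of 4 h were above every vehicle library, and the change of 0.26 (SE 0.06, adjusted p = 2.63e-04) did not hold with library totals, where it was 0.07 (adjusted p = 0.258). MST1R, the gene of the MSP receptor RON, changed by 0.80 (SE 0.09, adjusted p = 1.99e-08). Of 11 receptor tyrosine kinases the response of 3 was higher and that of 6 lower, while at 1 h their log2 changes ran from -0.11 for ERBB2 to 0.43 for FGFR1 and did not pass the test. With library totals the list stood at 1 higher and 7 lower. ERBB3 had 109, 108 and 104 CPM with HGF at 1 h and 31.6, 30.5 and 29.7 CPM at 4 h, and changed by -1.85 (SE 0.07, adjusted p = 1.19e-19). INSR, IGF1R, ERBB2 and FGFR2 changed by -1.8, -1.24, -1.23 and -1.05.

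Most FOXO targets were lower with HGF, and lower still at 4 h. Of 20 tested, 10 were called lower and 2 higher at 1 h, and 18 lower and 2 higher at 4 h. The response was lower at 4 h than at 1 h for 15 and higher for 2, with a median of -1.10. BMF, a BH3-only death gene, had 26.8, 24 and 23.6 CPM with vehicle and 16.8, 17.5 and 16.7 CPM with HGF at 1 h. At 4 h it had 28.3, 28.5 and 27.1 CPM with vehicle and 0.837, 0.633 and 0.587 CPM with HGF, so a loss already called at 1 h was deeper at 4 h, a change of -4.81 (SE 0.14, adjusted p = 7.63e-22). FBXO32, the ubiquitin ligase atrogin-1, had 26.1 ± 0.982 and 2.87 ± 0.312 CPM with HGF at the 2 hours, against 48 ± 4.45 and 59.1 ± 4.17 CPM with vehicle (SD, n = 3). PIK3IP1, a PI3K inhibitor, SESN3, a sestrin, and PDK4, a kinase of pyruvate dehydrogenase, changed by -2.74, -2.72 and -2.72. The 2 that gained were CDKN1B, at 0.33, and CCNG2, at 0.85. TXNIP, named above, is also a member of the list, and ERBB3 and INSR are in this list and in that of the receptors.

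Death and p53 genes were mixed. Of 11 BCL2 family genes, 4 were higher and 4 lower. BBC3, encoding PUMA, had 9.74 ± 0.883 against 6.36 ± 0.381 CPM at 1 h and 2.08 ± 0.402 against 5.3 ± 0.521 CPM at 4 h (SD, n = 3), above vehicle and then below it. Its change was -1.95 (SE 0.18, adjusted p = 1.55e-10). BAX, BID and BAK1 gained 0.56, 0.57 and 0.67. Of 14 p53 targets 4 were higher and 8 lower. GDF15 and TP53INP1, at -2.88 and -2.54, had the lowest changes, and AEN, an apoptosis-enhancing nuclease, gained 1.76.

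Biosynthetic genes gained response. All 16 ribosome biogenesis and polyamine genes had a higher response at 4 h, with a median of 1.31, and 8 of them had been called higher at 1 h. NOP56, a core protein of small nucleolar ribonucleoproteins, had 146, 143 and 139 CPM with HGF at 1 h and 556, 582 and 545 CPM at 4 h, against 134, 144 and 138 and 166, 156 and 151 CPM with vehicle. The 3 other groups lay close together and HGF at 4 h apart, a change of 1.78 (SE 0.07, adjusted p = 9.37e-20). ODC1, the first enzyme of polyamine synthesis, was early, at 1.85 on the log2 scale at 1 h and 2.48 at 4 h, and SRM, which makes spermidine, was late, at 0.02 and 2.01. With library totals all 16 stayed higher, with a median of 1.12.

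Of 15 genes of glycolysis and glucose uptake, 14 were higher, and the other was PFKL at -0.05 (adjusted p = 0.55). With library totals 10 were higher and 1 lower. LDHA, lactate dehydrogenase A, had 386, 439 and 401 CPM with HGF at 1 h and 1232, 1243 and 1257 CPM at 4 h, against 461 ± 20.1 CPM with vehicle, a change of 1.48 (SE 0.07, adjusted p = 1.45e-17). HK2, hexokinase 2, changed by 1.84 (SE 0.08, adjusted p = 9.63e-19). Of 16 cholesterol synthesis genes, 12 were higher and 1, LSS, lower, with SQLE at 1.19 and HMGCS1 at 1.21. With library totals they stood at 9 and 3.

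Most replication and mitosis genes were called lower with HGF at 4 h, 13 of 20 and 14 of 16. In the change over time, of 20 genes of G1 and replication, 5 were higher and 13 lower, and of 16 of G2 and mitosis 1 was higher and 12 lower, whereas at 1 h only 3 and 2 of them had been called. MCM2, of the replicative helicase, had 97, 93.4 and 98 CPM with HGF at 1 h and 48.4, 51.4 and 48 CPM at 4 h, while vehicle rose from 102, 104 and 98.6 to 149, 123 and 136 CPM. Both the fall with HGF and the rise with vehicle enter its change of -1.39 (SE 0.07, adjusted p = 5.22e-16). E2F2 changed by -2.07 (SE 0.14, adjusted p = 7.03e-14) and the mitotic kinesin KIF20A by -1.2 (SE 0.07, adjusted p = 2.33e-15). The G1 kinase CDK6 and the cyclins CCND2 and CCND3 were among the 5 that gained, at 1.21, 0.87 and 0.54.

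Of 14 genes of TGF-beta signalling, 5 were higher, led by the activin subunit INHBA with 27.7 ± 1.39 and 109 ± 4.8 CPM with HGF at the 2 hours (SD, n = 3), and 7 were lower, among them SMAD6 (-1.47), SMAD7 (-1.03) and ID1 (-1.27). Angiogenic factors were divided, 6 of 12 each way: VEGFA changed by -0.58 after an early rise of 2.32, and VEGFC, at -0.48 at 1 h, reached 1.93 at 4 h. ANGPTL4 and NRP1 gained 2.75 and 1.52. The median of these factors was 0.12, and -0.07 with library totals. Of 15 interferon response genes 10 were lower and 1 higher. IFIT2, an RNA-binding antiviral protein, had 34.8 ± 0.626 and 5.96 ± 0.250 CPM with HGF and 34.3 ± 2.4 CPM with vehicle at 4 h, and STAT2 changed by -2.07 (SE 0.08, adjusted p = 3.31e-19). Of 21 KRAB zinc finger genes 4 were higher and 6 lower, with 3 and 11 under library totals. Of 15 housekeeping genes, 7 were higher and 1 lower, with HPRT1 at 0.95 and PGK1 at 0.76, and with library totals 5 were higher and 5 lower.

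**Figure D3:**
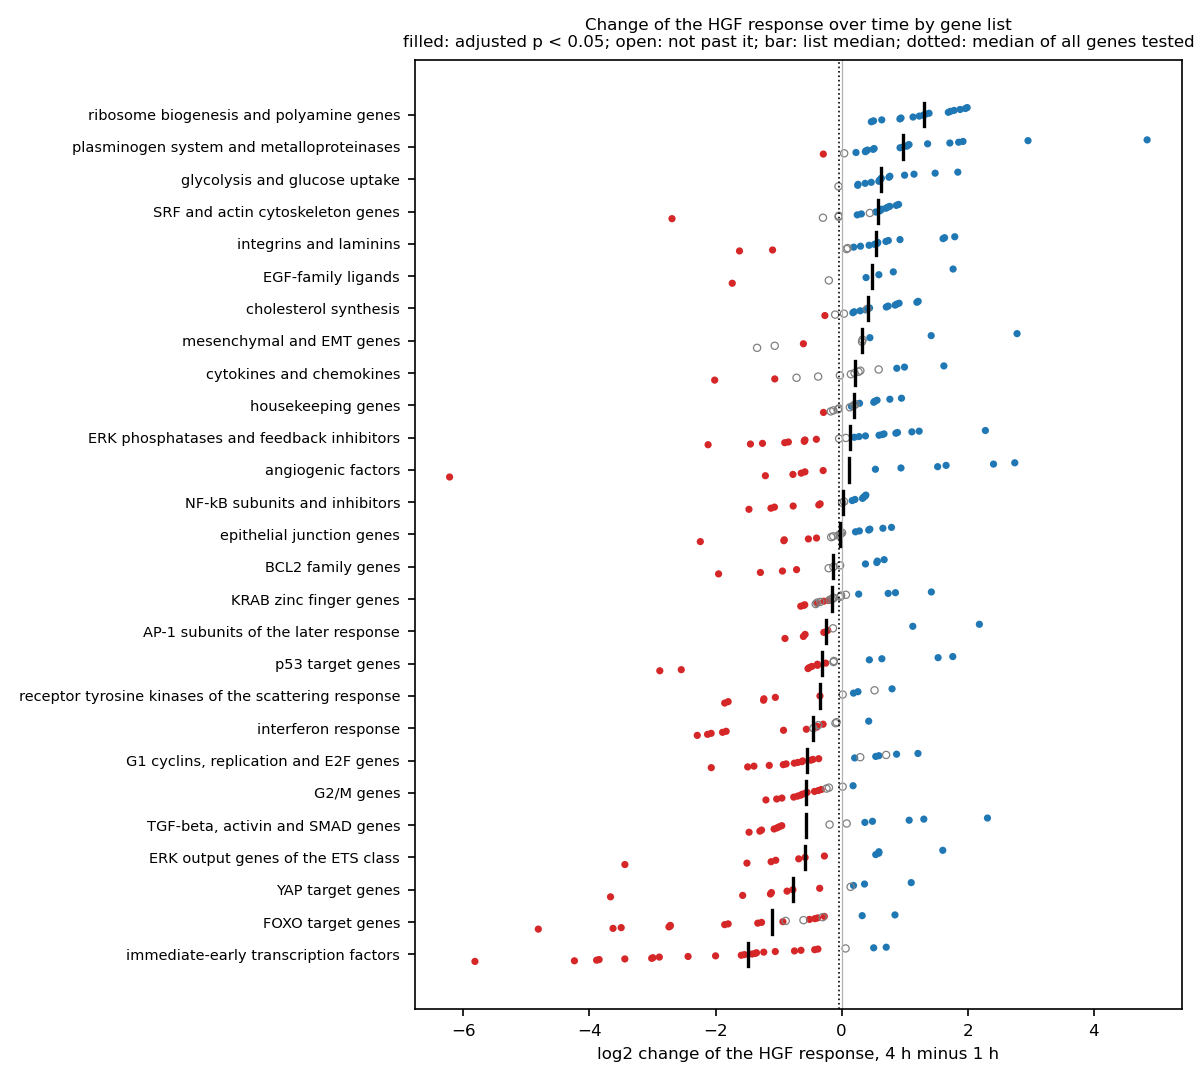
Change of the HGF response from 1 h to 4 h (log2, horizontal axis) of each tested member of 27 gene lists, filled where the adjusted p is under 0.05 and open otherwise, with a bar at the median of the list and a dotted line at the median of all genes. The lists run from ribosome biogenesis and polyamine genes (median 1.31) at the top to immediate-early genes, labelled as transcription factors (median -1.48), at the bottom.

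Gene structure was not used by the rule for the classes. Among protein-coding genes the median span from first to last annotated base was 9.83 kb for transient higher, 4.43 kb for declining, 12.9 kb for sustained higher and 11.1 kb for growing higher genes. It was 38.8 kb for delayed higher and 47.7 kb for delayed lower genes, against 34.2 kb over all 13053 protein-coding genes tested. The early classes that rose also had fewer exons, with a median of 4 or 5, against 9 for delayed higher genes and for all genes. An AU-rich ATTTA pentamer, a motif known from unstable RNAs, was in the 3′ untranslated region of 91.3% of declining, 85.7% of growing, 75.7% of delayed higher, 75% of transient higher and 68.0% of sustained higher genes, against 69.1% over all. Among genes lower with HGF, leaving out the 1 declining gene, it was in 10 of 11 transient, 21 of 29 sustained, 2 of 4 growing and 623 of 839 delayed genes. Per kb of untranslated region, the classes that rose held 1.97 (sustained) to 2.65 (growing) pentamers, against 2.23 over all. These are descriptions over 4 to 857 genes a class, with no test.

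**Figure D4:**
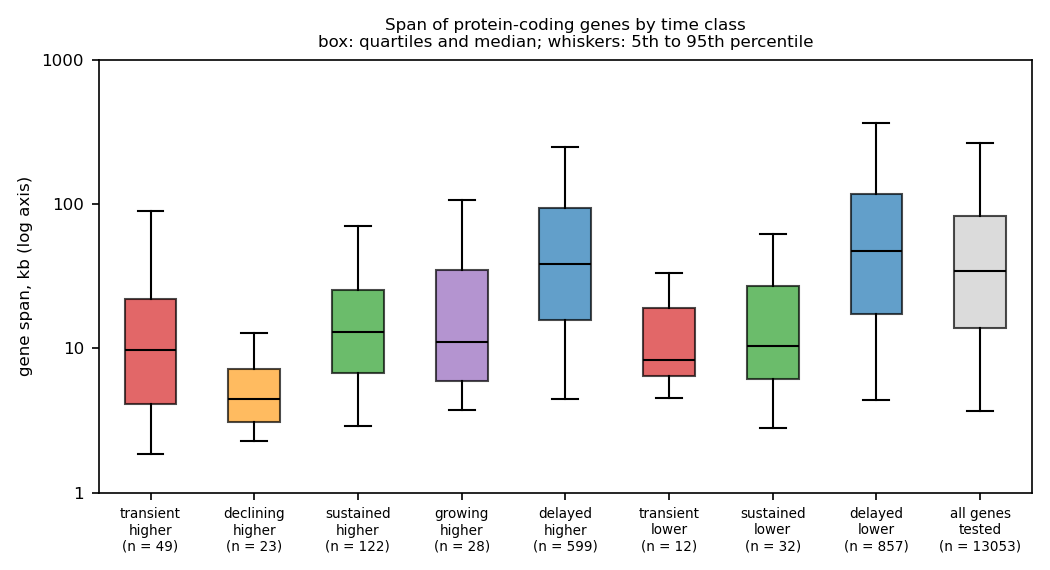
Genomic span in kb (log axis) of protein-coding genes by time class, as boxes of the median and quartiles with whiskers from the 5th to the 95th percentile. The transient, declining, sustained and growing classes lie lower, with medians from 4.43 to 12.9 kb, than the delayed classes, with medians of 38.8 and 47.7 kb, and than all genes, at 34.2 kb.

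The change over time was set against that with MSP, in a contrast in which the vehicle libraries cancel. It differed between the ligands in 8580 genes in either direction (51.1%), 4457 higher and 4123 lower with HGF. It was called for 50 of 66 transient higher, 20 of 23 declining, 76 of 151 sustained higher, 8 of 70 sustained lower, 30 of 32 growing higher, 639 of 704 delayed higher and 1118 of 1270 delayed lower genes, and these counts share the HGF libraries with the rule for the classes. The MSP response changed over time in 8 genes upward and 46 downward. Against the same vehicle libraries, the median transient higher gene stood at 0.41 on the log2 scale with MSP at 1 h and at -0.05 at 4 h, and the median declining gene at 0.67 and 0.03. The median sustained higher gene stood at 0.28 and 0.15 with MSP, and the median delayed higher gene at 0.02 and 0.16.

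EGR1 stood at 1.46 with MSP at 1 h and 0.08 at 4 h, next to 3.91 and 0.07 with HGF, and its course differed between the ligands by -2.46 (SE 0.12, adjusted p = 1.89e-11). For AKAP12 the MSP values were 0.37 and 0.94, and the difference of the courses 1.94 (SE 0.18, adjusted p = 5.04e-07). For MMP1 they were -0.04 and 0.00, and the difference 2.91 (SE 0.08, adjusted p = 2.42e-22). For TAGLN the courses, at 0.53 and 0.70 with MSP, differed by 0.28 (SE 0.18, adjusted p = 0.21), which did not pass the test. The ligands were given at 80 and 100 ng/ml, so doses differ.

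**Figure D5:**
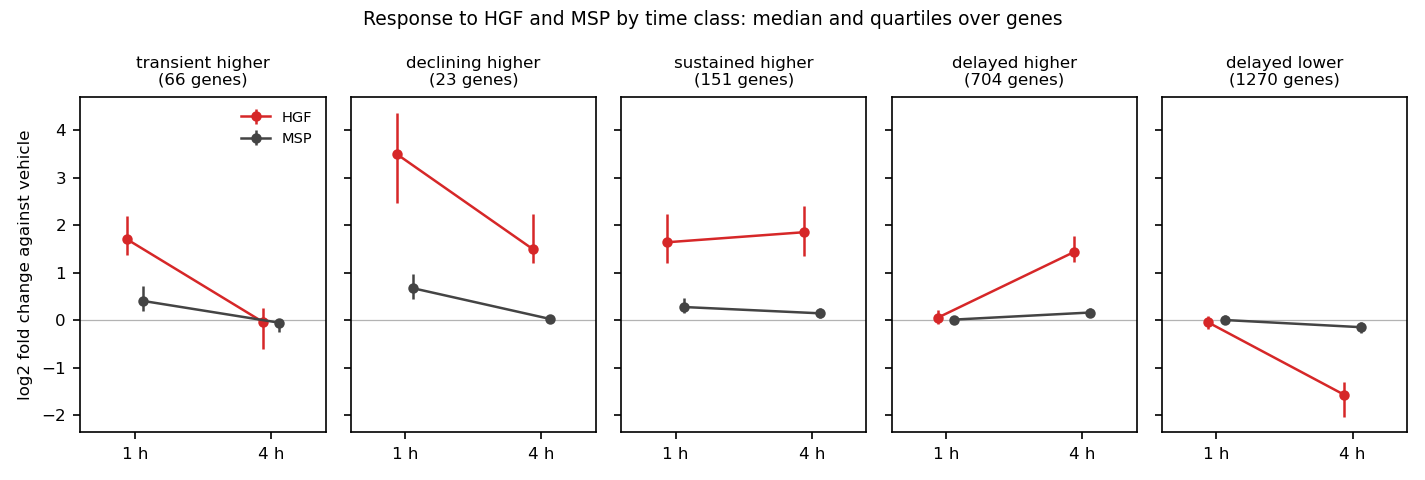
Log2 fold change against vehicle at 1 h and 4 h with HGF (red) and with MSP (grey) for 5 time classes, as the median over genes with bars for the quartiles. With MSP the medians of the transient and declining classes were 0.41 and 0.67 at 1 h and -0.05 and 0.03 at 4 h, while the median of the delayed higher class was 0.02 and 0.16. The classes were chosen on the HGF values.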

How the data were processed

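RNA of 18 BxPC-3 libraries was measured by sequencing, from libraries made with a KAPA mRNA HyperPrep kit per the labels' protocols. The authors deposited whole-number gene counts in 1 table, in which the 2 lanes of each sample were already combined. The aligner was STAR and the counter featureCounts (Subread), per the submitters' processing notes. Their versions, the genome build, the annotation and the strand setting: not given in the sources used here. Of 58395 identifiers, 57754 were in a table of gene names, 58275 in GENCODE 29, and 26464 had 0 counts in all libraries. All 18 columns were used.

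From these counts edgeR 4.0.16 in R 4.3.3 kept genes by filterByExpr (minimum count 10, minimum total 15), scaled by TMM and fitted 1 mean per group over all 18 libraries with the robust quasi-likelihood model (12 residual degrees of freedom, biological coefficient of variation 5.23%). Of 16794 genes kept, 15287 had a symbol. Adjusted p-values are Benjamini-Hochberg values over the whole table, with a threshold of 0.05, and the SE is the size of the log2 change divided by the square root of F. The fit was tested on simulated data. No pair of replicates was a copy, since the chi-square divided by its degrees of freedom was 3.03 to 5.75 within the 4 groups. Between the MSP libraries, which share in the estimate of the spread, it was 7.2 to 20.2 at 1 h and 3.65 to 4.79 at 4 h. Gene spans, exons and untranslated regions come from GENCODE 29, and promoters from RefSeq.

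The members, classes and lists were chosen with earlier results of these data known. The rule named protein-coding genes with a symbol, an average level of 1 CPM or more in the 12 libraries and at least 10 counts over the 3 libraries of each group, by size of the change over time: 6 transient higher and 4 lower, 3 declining, 3 growing in each direction, 6 delayed in each direction, and by the smaller of the 2 changes 6 sustained higher and 4 lower. It added up to 2 genes in each direction that had crossed over by 4 h, by size of the 4 h change, the 2 most significant called members per list, MET and MST1R. Some genes that the rule named are not reported here. Other genes, and the 6 promoters, were chosen after their values were seen. Alternatives were library totals, DESeq2 size factors, the DESeq2 1.42.0 test, no count filter or a minimum of 30, the 12 HGF and vehicle libraries alone, no robust estimation, a replicate block, each library left out, and 1.5-fold or 4-fold limits for the classes.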

Additional observations from a re-analysis of the deposited data

Results flagged for a closer look

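The response to HGF pointed in opposite directions at the 2 hours for 265 genes called higher at 1 h and lower at 4 h, and for 147 genes called lower at 1 h and higher at 4 h, each by edgeR's test at both hours.

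At least 2-fold in both directions was reached by BTG2, with a change of the response of -3.44 on the log2 scale, and by ELF3, also at -3.44. It was reached too by ENSG00000241357, at -4.4, ENSG00000265399, at -3.30, and STX5-DT, at -2.33. These last 3 had 3, 7 and 13 counts in all over the HGF libraries at 4 h. All 5 were called in the change over time.

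The change over time differed between HGF and MSP for 8580 genes by the test of that difference.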

How the results depend on the processing

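The value recomputed for each gene named by the rule was the change over time, or for sustained genes the 4 h change. None of these values reversed its direction under any alternative run. The medians of 3 lists changed sign with library totals, those of the ERK feedback genes, the NF-kB genes and the angiogenic factors. Of the values recomputed for the genes named by the rule, 909 of 910 kept their direction and their side of the threshold. The exception was the change over time of MET with library totals, 0.07 (adjusted p = 0.258). The changes over time of the named sustained genes were not followed through the alternatives. The range of the counts over leaving out each library was 4325 to 4432 higher and 4117 to 4350 lower for the change over time. Of 18 correlations between same-numbered libraries, 16 were above 0 and 10 above 0.1 (range -0.088 to 0.178), against 9 and 1 of 36 between different numbers. Since not every pair was above 0.1, and not every library correlated best with its own number, the numbers were not used as pairs, and whether they mark a shared step was not tested. With a replicate block the counts were 4542 and 4507. The difference between HGF and MSP could not be recomputed from the 12 libraries alone. Depth limits the genes of few counts, such as RARB and TMEM37 with HGF at 4 h.

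Library totals moved the counts at 1 h to 1523 higher and 3590 lower, those higher at 4 h to 3553, and those of the difference between HGF and MSP to 2932 higher and 6459 lower. They put 3117 genes higher and 6371 lower in the change over time, where 32.9% of calls were higher against 50.3% with TMM, and at 4 h 8732 were lower. By class they gave 117 sustained higher, 130 sustained lower, 20 growing higher, 24 growing lower and 416 delayed higher genes, of which 395 were among the 704. Whether TMM or library totals fit these cells better was not tested.

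A minimum count of 30 left 43 sustained lower genes. Leaving out 1 library gave 19 to 33 transient lower genes against 21 with all (33 without HGF at 1 h, replicate 1) and 6 to 13 growing lower genes against 12 (6 without vehicle at 1 h, replicate 3). A 1.5-fold limit gave 132 transient higher, 79 transient lower, 45 declining higher, 237 sustained higher, 151 sustained lower, 151 growing higher, 60 growing lower, 1570 delayed higher and 2043 delayed lower genes. A 4-fold limit gave, in the same order, 23, 3, 1, 57, 8, 5, 1, 92 and 319.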
